A study of Danio rerio with 18 samples.

Results

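The genes flt1, tek, ramp2, stab1, stab2, lyve1b, plvapb and she mark blood vessel endothelium of the zebrafish or encode receptors that endothelial cells carry. The rule names them by symbol and uses no measured value, though they were chosen with earlier results of these data known. All 8 matched a single gene ID among the 33737 IDs of the count tables, of which 21939 carry a symbol. Their Ensembl IDs were ENSDARG00000019371 (flt1), ENSDARG00000028663 (tek), ENSDARG00000037895 (ramp2), ENSDARG00000076484 (stab1), ENSDARG00000045748 (stab2), ENSDARG00000062483 (lyve1b), ENSDARG00000045003 (plvapb) and ENSDARG00000087956 (she). Each has a row in all 16 count tables and passed the low-count filter of every comparison below.

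Endothelial cells line the vessels and read signals from tissue and blood through surface receptors. Vascular endothelial growth factors act through Flt1 and the Kdr receptors, angiopoietins through the Tie receptors, and adrenomedullin through the calcitonin receptor-like receptor paired with a Ramp protein. Endothelium of veins also clears material from the circulation through the stabilins, and lyve1b marks veins and later lymphatic vessels in zebrafish.

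The samples came from the trunk of embryos at 28 hours post-fertilization (hpf), in 9 groups of 2. RNA-seq of endothelial cells covered mettl3 morphants, ythdf2 morphants and controls, where a morphant is an embryo injected with a morpholino, an antisense oligomer that blocks translation or splicing of its target. MeRIP-seq, which sets RNA fragments recovered by an antibody to N6-methyladenosine (m6A, IP) beside unselected RNA (input), covered mettl3 morphants and controls. RIP-seq covered normal embryos injected with mRNA of Flag-tagged ythdf2, and miCLIP of control embryos is not used here. Mettl3 is the enzyme that places the m6A mark, and transcripts that carry it can be bound and sent to degradation by Ythdf2. Strain, morpholino, control injection and the way endothelial cells were isolated are not described here. Separate animals or clutches are not stated for replicates, so the p-values below reflect how far these libraries scatter, and that scatter may be technical.

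The MeRIP libraries held 32.8 M to 78.3 M gene counts each, the endothelial columns 3.57 M to 4.75 M, and RIP 5.27 M and 7.90 M. Reads were 151 bp in replicate 1 and 101 bp in replicate 2 of every MeRIP group, and 101 bp in the RIP and endothelial libraries. In each endothelial group the 2 columns differed by about sampling noise, with a chi-square of 1.01 per degree of freedom in mettl3 morphants, 1.04 in ythdf2 morphants and 1.04 in controls, against 59.4 to 338 in the other pairs. They were summed and count as 1 sample per group, so endothelial ratios have no replicate check and no test, and their 95% intervals cover counting error only. The transcript of mettl3 did not follow the labels in the trunk, with 15.7 and 48.2 CPM, the count scaled to a common gene total of 1 M, in inputs labelled mettl3 morphant and 35.8 and 19.6 CPM in inputs labelled control. In endothelial columns the targeted transcript was higher under its own label, at 137 and 143 CPM of mettl3 in mettl3 morphants against 20.2 and 18.8 CPM in controls, and at 22.7 and 29.3 CPM of ythdf2 in ythdf2 morphants against 5.69 and 9.20 CPM in controls. A morpholino need not lower the level of its target transcript, so these values do not check the knockdown, and all groups below are named by their labels.

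Control endothelial cells held more RNA of all 8 genes, in CPM, than the whole trunk did. Each was at least 2-fold above both control inputs, against 10.7% of 21686 genes. The tyrosine kinase receptor flt1, which binds vascular endothelial growth factor and acts largely as a decoy, was at 142 CPM in control endothelial cells, against 6.03 and 6.92 CPM in control inputs, a ratio of 20.6 to 23.6. Comparable ratios held for ramp2 (23.2 to 32.0), lyve1b (22.9 to 46.0) and plvapb (22.9 to 34.5). The ratios of tek (6.45 to 13.6), stab2 (7.26 to 10.9) and she (8.96 to 10.6) were lower. stab1 was closest to the trunk, at 111 CPM in control endothelial cells against 25.7 and 32.4 CPM in control inputs, a ratio of 3.42 to 4.31.

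**Figure D1:**
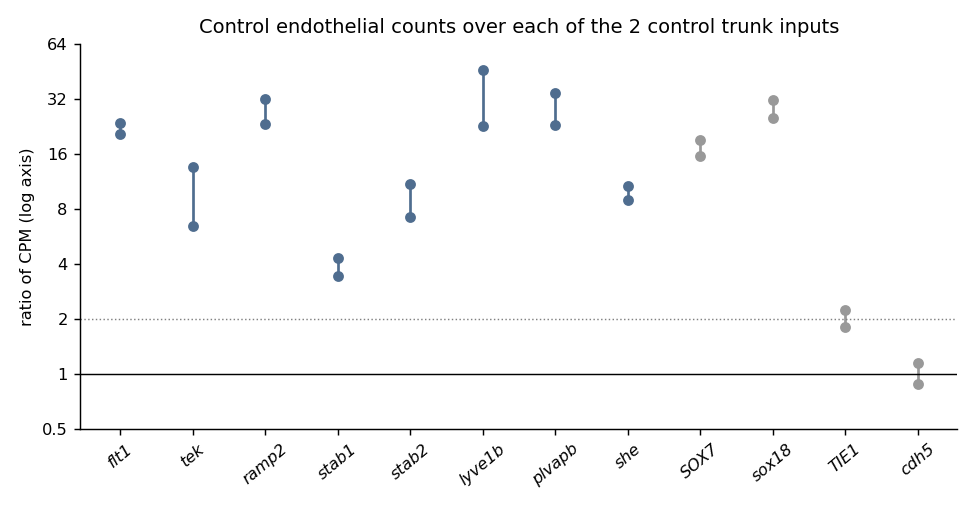
Ratio of CPM in the summed control endothelial columns to CPM in each of the 2 control trunk inputs (points, joined by a line), on a log axis, for the 8 genes (blue) and for the 4 endothelial markers that matched a gene ID (grey). All 8 genes lie above the dotted line at 2-fold, with stab1 lowest at 3.42 to 4.31, while cdh5 lies near 1.

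Of 10 endothelial markers listed to check the cell type label, 4 matched a gene ID. SOX7 and sox18, transcription factors of endothelium, were at 15.6 to 19.1 times and 25.2 to 31.7 times the control inputs. TIE1, the sister receptor of tek, was at 1.81 to 2.25 times and cdh5, the cadherin of endothelial junctions, at 0.87 to 1.14 times. The label was thus met by 2 of 4 markers past 2-fold above both inputs, and not by cdh5. Of 14 endothelial core genes, the list used for scaling below, 10 were at least 2-fold above both inputs, beside 10.7% of all genes. 2 were at least 2-fold below both, robo4 at 0.21 to 0.28 times the inputs and aplnra at 0.35 to 0.44 times, from 3 counts in control cells. cdh5 is also in that list. The 8 genes were chosen with earlier results of these data known and are no check of the label. Library kind and cell type cannot be told apart in these ratios. Muscle markers were also abundant in control endothelial cells, with all 8 detected and a summed level of 41095 CPM, against 25325 and 24033 CPM in control inputs, while the 9 epidermal markers summed to 2453 CPM, against 29769 and 36491 CPM in control inputs.

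In endothelial cells of mettl3 morphants, 4 of 8 genes were past 2-fold above the control level (tek, lyve1b, plvapb and ramp2), where 19.5% of 13933 genes were past 2-fold higher and 31.2% past 2-fold lower. In those of ythdf2 morphants, 5 of 8 were past 2-fold above it (tek, she, stab1, flt1 and stab2), where 21.4% of genes were past 2-fold higher and 32% past 2-fold lower. The median log2 ratio of the 8 genes was 0.97 in mettl3 morphants and 1.26 in ythdf2 morphants, beside medians of -0.10 and -0.14 over all genes. These directions held under TMM scaling, which centres the ratios on the bulk of genes, but 5 of 8 in mettl3 morphants and 4 of 8 in ythdf2 morphants turned to below the control level when scaled to endothelial core genes, as given below. Both comparisons share the control cells, so their values stand side by side and are not independent.

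**Figure D2:**
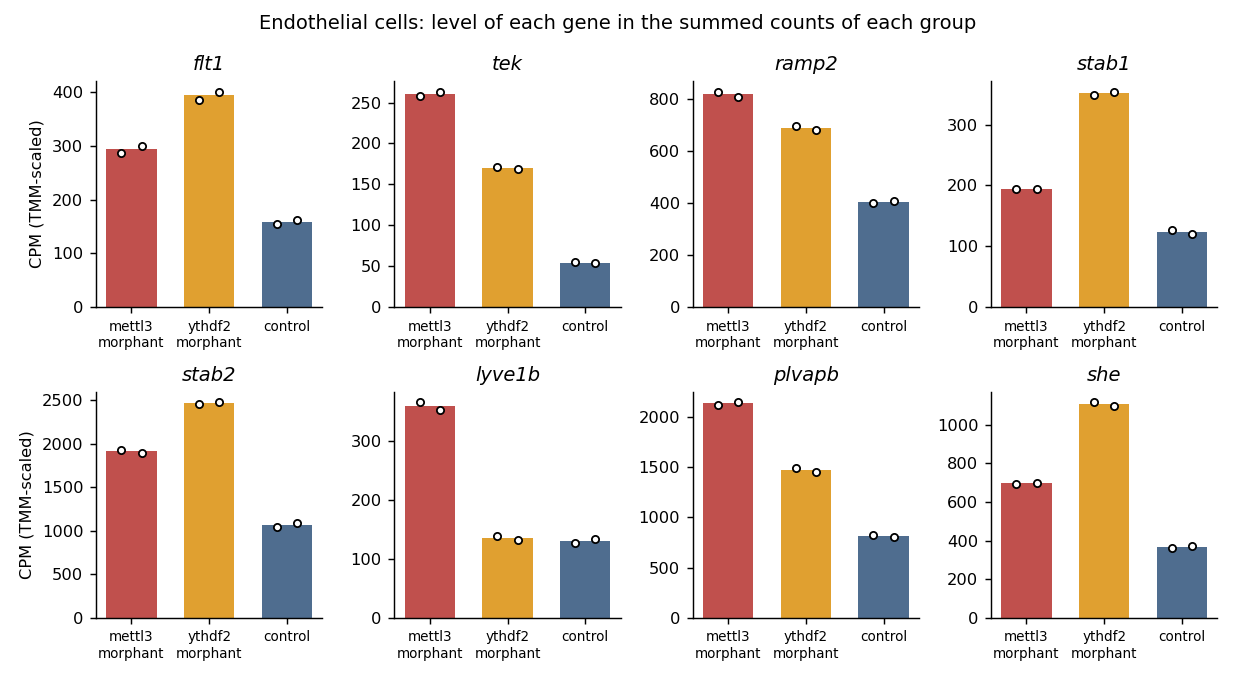
Level of each gene in endothelial cells, in TMM-scaled CPM, for mettl3 morphants, ythdf2 morphants and controls. Bars give the summed columns and points the 2 columns, which are near duplicates; lyve1b stood high in mettl3 morphants only (359 CPM, against 135 CPM in ythdf2 morphants and 131 CPM in controls), and the other 7 were above the control in both, directions that the core scaling turns for some genes.

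Among the receptors, flt1 was at 287 and 300.1 CPM in the columns of mettl3 morphants and at 386 and 401 CPM in those of ythdf2 morphants, against 154 and 162 CPM in controls. The columns of the 3 groups did not overlap with TMM scaling, and ythdf2 morphants were highest. The ratio to control was 1.85 (95% interval 1.74 to 1.98) in mettl3 morphants and 2.49 (2.33 to 2.65) in ythdf2 morphants. On core scaling these became log2 ratios of -0.29 in mettl3 morphants and 0.03 in ythdf2 morphants.

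The angiopoietin receptor gene tek, also called Tie2, was at 258 and 263 CPM in mettl3 morphants and at 171 and 169 CPM in ythdf2 morphants, against 55.2 and 53.3 CPM in controls. It stood highest in mettl3 morphants, with ythdf2 morphants between them and controls. Its ratio to control, 4.80 (4.34 to 5.32) in mettl3 morphants and 3.13 (2.81 to 3.49) in ythdf2 morphants, was the largest of the 8 genes in each comparison under TMM scaling. It was the only one of the 8 past 2-fold in mettl3 morphants after core scaling, at a log2 ratio of 1.08, and stood at 0.37 in ythdf2 morphants.

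The receptor partner ramp2, an accessory protein of the adrenomedullin receptor, was at 829 and 809 CPM in mettl3 morphants and at 697 and 682 CPM in ythdf2 morphants, against 401 and 407 CPM in controls. With TMM scaling both morphants stood above the control, and with core scaling both stood below it. The ratio of 2.03 (1.94 to 2.11) in mettl3 morphants has an interval on both sides of 2-fold, and the ratio in ythdf2 morphants was 1.71 (1.63 to 1.78). The core-scaled log2 ratios were -0.16 in mettl3 morphants and -0.51 in ythdf2 morphants.

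Of the venous scavenger receptors, stab1 was at 194 and 194 CPM in mettl3 morphants and at 349 and 354 CPM in ythdf2 morphants, against 126 and 120.3 CPM in controls. Its ratio to control was the lowest of the 8 genes in mettl3 morphants, at 1.57 (1.46 to 1.70), and 2.85 (2.65 to 3.07) in ythdf2 morphants. Its paralog stab2 was at 1922 and 1896 CPM in mettl3 morphants and at 2458 and 2473 CPM in ythdf2 morphants, against 1039.9 and 1086 CPM in controls. Both stabilins were thus higher in ythdf2 than in mettl3 morphants and lowest in controls under TMM scaling. For stab2 the ratio was 1.79 (1.75 to 1.84) in mettl3 morphants and 2.32 (2.26 to 2.38) in ythdf2 morphants. After core scaling stab1 and stab2 lay below the control in mettl3 morphants, at -0.53 and -0.34, and at 0.23 and -0.07 in ythdf2 morphants.

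The hyaluronan receptor lyve1b gave the clearest split between the morphants. It was at 365 and 352 CPM in mettl3 morphants and at 139 and 131 CPM in ythdf2 morphants, against 126 and 134 CPM in controls. Columns of ythdf2 morphants and controls overlapped, and those of mettl3 morphants stood apart. The ratio was 2.75 (2.57 to 2.95) in mettl3 morphants and 1.04 (0.95 to 1.13) in ythdf2 morphants. Core scaling put it at log2 ratios of 0.28 in mettl3 morphants and -1.23 in ythdf2 morphants, where it was the only one of the 8 past 2-fold, in the lower direction. Its paralog lyve1a ran otherwise, with 4 counts over the columns of mettl3 morphants and 86 over those of ythdf2 morphants, against 96 over those of controls.

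The gene plvapb encodes the protein of the diaphragms that span fenestrae and caveolae of endothelium. It was at 2120.5 and 2144 CPM in mettl3 morphants and at 1488 and 1451 CPM in ythdf2 morphants, against 820 and 808 CPM in controls. With TMM scaling mettl3 morphants stood highest and controls lowest, as for tek and ramp2, while core scaling puts ythdf2 morphants below controls for plvapb. The ratio to control was 2.62 (2.54 to 2.69) in mettl3 morphants and 1.80 (1.75 to 1.86) in ythdf2 morphants, and core scaling put the log2 ratios at 0.21 and -0.43.

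The adaptor gene she, which codes for a protein with an SH2 domain, was at 691 and 699.6 CPM in mettl3 morphants and at 1116 and 1099 CPM in ythdf2 morphants, against 362 and 374 CPM in controls. Like the stabilins and flt1, it stood highest in ythdf2 morphants with TMM scaling. The ratio was 1.89 (1.81 to 1.97) in mettl3 morphants and 3.01 (2.89 to 3.14) in ythdf2 morphants, and core scaling gave log2 ratios of -0.26 and 0.31.

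Set against each other without the control cells, the morphants differed in which genes stood higher. The log2 ratio of ythdf2 over mettl3 morphants was 0.86 for stab1, 0.67 for she, 0.42 for flt1 and 0.37 for stab2. It was -1.41 for lyve1b, -0.61 for tek, -0.54 for plvapb and -0.25 for ramp2. All 8 kept these directions under core scaling, where lyve1b stood at -1.51 and stab1 at 0.76. Only lyve1b was past 2-fold with TMM, at a ratio of 0.377 (0.350 to 0.405), so that 0 of 8 were past 2-fold higher, where 26.4% of genes were, and 1 of 8 past 2-fold lower, where 25.5% were. The counts of 0 and 1 of 8 held on core scaling, where 25% of genes were past 2-fold higher and 26.9% lower.

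The morphant cells also differed from control cells in their share of other RNA, with some marker sums lower and some higher. Sums in this paragraph are in CPM without TMM scaling, while calls past 2-fold use TMM. Without TMM, log2 ratios to control stand higher by 0.27 in mettl3 morphants and by 0.19 in ythdf2 morphants. The 8 muscle markers summed to 2927 CPM in mettl3 morphants and 9592 CPM in ythdf2 morphants, against 41095 CPM in control cells, and 8 of 8 were past 2-fold lower in each morphant, with none at 0. Erythroid markers were past 2-fold lower in 6 of 7 genes in each, beside 31.2% and 32% of all genes, with gata1a at 0 in mettl3 morphants. The other kept gene, blf, was at 2.17 times the control in mettl3 morphants and 1.67 times in ythdf2 morphants. hbae5, at 0 in ythdf2 morphants and 11 counts in controls, had too few counts to be kept. All 8 summed to 83.6 CPM in mettl3 morphants and 42.2 CPM in ythdf2 morphants, against 211 CPM in control cells. Neural crest and pigment markers summed to 26.2 CPM in mettl3 morphants and 19.0 CPM in ythdf2 morphants, against 174 CPM in control cells. Of 5 such genes with enough counts, 4 were past 2-fold lower in each morphant. pmelb went the other way in mettl3 morphants, with 130 counts there and 0 in ythdf2 morphants, against 4 in controls. pmela had 0 counts in mettl3 morphants and 135 in ythdf2 morphants, against 887 in controls. Mesenchymal markers summed to 1414 CPM in mettl3 morphants and 449.97 CPM in ythdf2 morphants, against 2597 CPM in control cells. Neural markers summed to 1198 CPM in mettl3 morphants and 581 CPM in ythdf2 morphants, against 1077 CPM in control cells. With TMM scaling the neural sum lay below the control in both morphants. The median log2 ratios of the neural markers with TMM were -0.43 in mettl3 morphants and -1.09 in ythdf2 morphants, beside -0.10 and -0.14 over all genes. Notochord markers summed to 1454 CPM in mettl3 morphants and 2084 CPM in ythdf2 morphants, against 1288 CPM in control cells. TMM scaling turns the notochord sum of mettl3 morphants to below the control. Higher sums in both morphants were found for myeloid markers, at 92.4 CPM in mettl3 morphants and 133 CPM in ythdf2 morphants against 39.6 CPM in control cells. Of 4 such genes with enough counts, 2 were past 2-fold higher and 1 lower in mettl3 morphants, and 3 higher and 1 lower in ythdf2 morphants. LCP1 and CEBPA were higher in both. ptprc had 0 counts in mettl3 morphants and 114 in ythdf2 morphants, against 30 in controls. CORO1A was the lower one in ythdf2 morphants, at a log2 ratio of -1.04. Epidermal markers summed to 2419 CPM in mettl3 morphants and 5278 CPM in ythdf2 morphants, against 2453 CPM in control cells. Most of each sum was krt8, at 1919, 4355 and 1795 TMM-scaled CPM in that order. In mettl3 morphants 4 of 9 epidermal markers were past 2-fold lower and 0 higher, beside 31.2% and 19.5% of all genes. In ythdf2 morphants 1 was past 2-fold lower and 3 higher, beside 32% and 21.4% of all genes. The part of these RNAs in the ratios of the 8 genes was not tested beyond the core scaling below, and in bulk samples fewer cells of a type and less RNA per cell cannot be told apart.

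**Figure D3:**
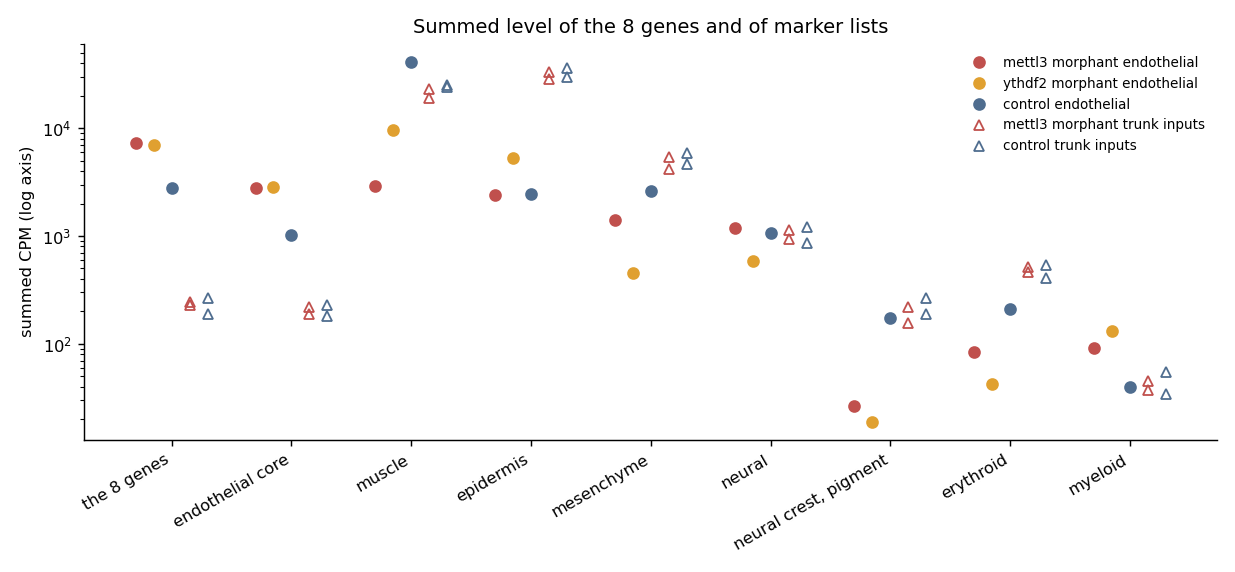
Summed CPM without TMM scaling, on a log axis, of the 8 genes and of marker lists, in endothelial cells of mettl3 morphants, ythdf2 morphants and controls (filled circles) and in trunk inputs of mettl3 morphants and controls (triangles, 2 libraries each). In control endothelial cells the muscle sum is 41095 CPM, above both control inputs, and it is 2927 CPM in mettl3 morphants and 9592 CPM in ythdf2 morphants.

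Most core genes of endothelium were higher in the morphant cells too. Of 14 such genes, 9 were past 2-fold higher in mettl3 morphants and 9 in ythdf2 morphants, beside 19.5% and 21.4% of all genes. Past 2-fold lower were 0 and 1, beside 31.2% and 32% of all genes, and the median log2 ratios were 1.16 and 1.42. The lower one was cdh5, at a log2 ratio of -3.19 in ythdf2 morphants. It had 212 counts in mettl3 morphants and 23 in ythdf2 morphants, against 242 in controls. Their summed level was 2.27 times the control level in mettl3 morphants and 2.43 times in ythdf2 morphants. Scaling the columns to this sum instead of TMM, a choice made after seeing the data, lowered the log2 ratio of every gene by 1.18 in mettl3 morphants and by 1.28 in ythdf2 morphants. It left tek, lyve1b and plvapb above the control level in mettl3 morphants, and flt1, tek, stab1 and she above it in ythdf2 morphants, with 1 of 8 past 2-fold in each comparison (tek higher in mettl3 morphants, lyve1b lower in ythdf2 morphants). On this scaling 7.54% of all genes were past 2-fold higher and 60.2% lower in mettl3 morphants, and 8.89% higher and 62.4% lower in ythdf2 morphants.

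**Figure D4:**
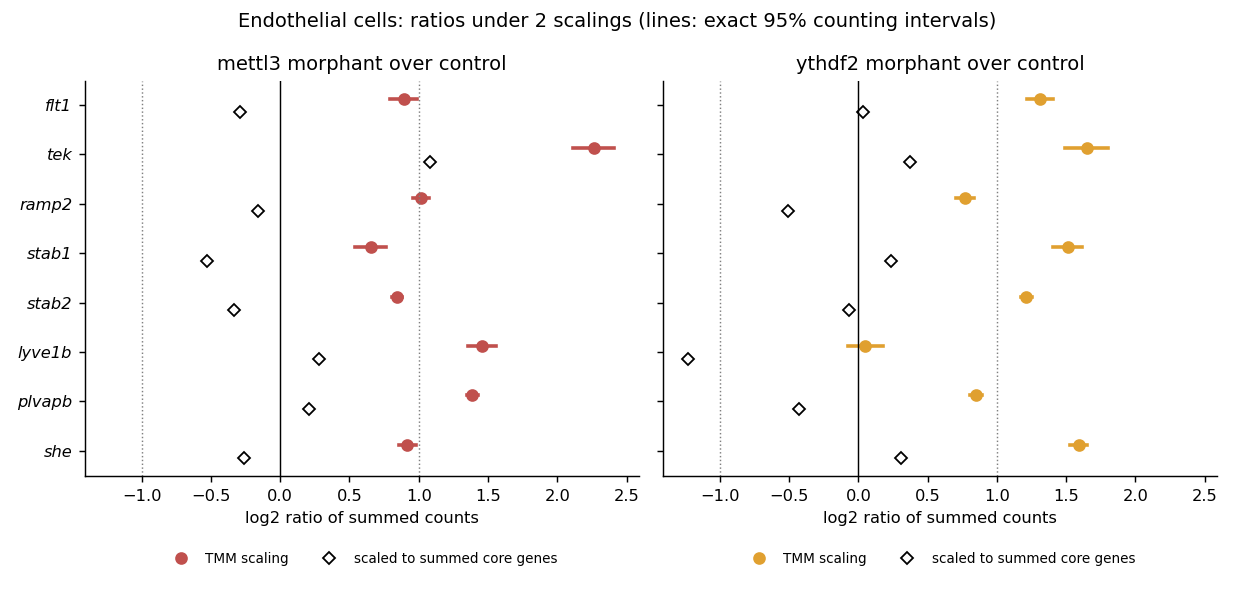
Log2 ratio to control endothelial cells of each gene, for mettl3 morphants (left) and ythdf2 morphants (right), under TMM scaling (filled circles with 95% counting intervals) and scaled to the summed core genes (open diamonds). Under TMM scaling all ratios lie above 0, that of lyve1b in ythdf2 morphants at 0.05 with an interval across 0, and core scaling puts 5 of 8 in mettl3 morphants and 4 of 8 in ythdf2 morphants below 0.

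Partners of the receptors in the same pathways did not move as blocks. Over all genes, 19.5% were past 2-fold higher and 31.2% lower in mettl3 morphants, and 21.4% higher and 32% lower in ythdf2 morphants. The lists below hold 3 to 7 genes, and counts near these shares are no result about a pathway. Of the vascular endothelial growth factor list, 4 genes had enough counts, and 2 were past 2-fold higher in mettl3 morphants (VEGFC at 2.10 times and VEGFD at 2.45 times the control level, of which core scaling turns VEGFC to below it) while in ythdf2 morphants 0 were higher and 2 lower. These were KDR, a further receptor of these ligands, at a log2 ratio of -2.06, and VEGFD, with 0 counts in ythdf2 morphants against 21 in controls. In the Tie and angiopoietin list of 5 such genes, 1 was past 2-fold higher and 1 lower in mettl3 morphants, and 1 higher and 3 lower in ythdf2 morphants. TIE1 was the higher one in both, at log2 ratios of 1.98 in mettl3 morphants and 1.58 in ythdf2 morphants. ANGPT4, a ligand, was lower in both, with 6 counts in mettl3 morphants and 3 in ythdf2 morphants against 57 in controls. The other 2 lower ones in ythdf2 morphants were ANGPT1 and SVEP1. ANGPT1, a further ligand, had 0 counts in ythdf2 morphants against 118 in controls, and SVEP1 had 0 in ythdf2 morphants against 12 in controls. SVEP1 was kept only through its 23 counts in mettl3 morphants, and both groups compared lay under the minimum of 20 counts. The adrenomedullin list of 3 genes went both ways, with 1 higher and 2 lower in mettl3 morphants and 1 higher and 1 lower in ythdf2 morphants. The receptor calcrla, which ramp2 serves, was past 2-fold higher in both. Its log2 ratio was 1.16 in mettl3 morphants, which core scaling turns to below 0, and 1.90 in ythdf2 morphants. The ligand gene adm2a had 0 counts in mettl3 morphants and 10 in ythdf2 morphants, against 64 in controls, and RAMP1, a relative of ramp2, had 0 in mettl3 morphants and 32 in ythdf2 morphants, against 45 in controls. Of 4 genes of caveolae, 3 were past 2-fold lower in each morphant, and these were cav3, cavin4a and cavin4b, which are known from muscle, while CAV2, a caveolin of many cell types, was higher, at 41.2 CPM in mettl3 morphants and 67.6 CPM in ythdf2 morphants against 8.04 CPM in controls. In the venous and lymphatic list of 7 genes, 4 were past 2-fold higher and 2 lower in mettl3 morphants, and 2 higher and 2 lower in ythdf2 morphants. ephb4b, a receptor of venous endothelium, was among the higher ones, at log2 ratios of 2.40 in mettl3 morphants and 1.83 in ythdf2 morphants. In control endothelial cells ephb4b stood below the trunk, at 0.40 to 0.52 times the control inputs. CCBE1 was among the lower ones in both, with 0 counts in mettl3 morphants and 1 in ythdf2 morphants against 88 in controls. lyve1a was the other lower one in mettl3 morphants, with 4 counts against 96 in controls. NR2F2 was the other lower one in ythdf2 morphants, at a log2 ratio of -1.25, and stood at 0.09 in mettl3 morphants. All of these ratios are TMM-scaled and fall by the shifts given above on core scaling.

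In the whole trunk no difference by label was detectable for any of the 8 genes. Comparing inputs of mettl3 morphants with control inputs, edgeR called 0 of 8 genes at an adjusted p below 0.05, as it called 0% of 22561 genes. At an unadjusted p below 0.05 there were 290 genes, a smaller share than the 0.05 expected if no gene differed. The test is thus cautious here, and a lack of calls does not show equal levels. DESeq2 called 1 gene and 0 of the 8. With the replicate number as a block, edgeR called 2 genes higher and 3 lower and 0 of the 8. Log2 differences ran from -0.14 for tek to 0.26 for lyve1b, with an edgeR adjusted p of 0.9999 for each. flt1 was at 6.36 and 6.06 TMM-scaled CPM in mettl3 morphant inputs, against 6.57 and 6.37 CPM in control inputs, so that both morphant libraries lay just below both controls. she was at 38.4 and 37.4 CPM in mettl3 morphant inputs, against 33.9 and 34.0 CPM in control inputs, and both morphant libraries lay above both controls. How many of all genes separate in this way was not counted. Lack of overlap, here and in the IP and RIP comparisons below, therefore only describes these libraries. The groups overlapped for the other 6, of which lyve1b spread most, at 5.86 and 3.25 CPM in mettl3 morphant inputs against 2.78 and 4.72 CPM in control inputs. Its mettl3 morphant library was the higher one at 151 bp and the lower one at 101 bp. stab2, at 119 and 104 CPM in mettl3 morphant inputs against 95.8 and 121 CPM in control inputs, spread more within each label than between them.

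The m6A IP was set against the input over the whole gene, which measures how much of a gene's RNA the antibody recovered relative to the typical gene and is not a methylation level. With TMM scaling ramp2 was called lower in IP than in input in both labels and stab1 in controls, and no gene of the 8 was called higher. In mettl3 morphants edgeR called 1 of 8 genes, ramp2, lower in IP, and 0 higher, where 13.1% of 23163 genes were called higher and 13.2% lower. In controls it called 2 of 8, ramp2 and stab1, lower in IP, and 0 higher, where 13.7% of genes were called higher and 14.6% lower. The counts of 1 and 2 of 8 are near these background shares. Scaled by total gene counts, 0 of 8 were called in either, and the genes called over the whole table in controls split into 1533 higher and 882 lower, against 3166 higher and 3389 lower with TMM. The median log2 ratio of all genes in controls was -0.03 with TMM and 0.09 with total counts.

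Values for ramp2 in mettl3 morphants were 7.48 and 7.80 CPM in IPs, against 12.9 and 14.8 CPM in inputs. Its values in controls were 6.21 and 9.43 CPM in IPs, against 12.8 and 14.9 CPM in inputs. No IP library reached an input of its label. Within a read length, the log2 ratio was -0.78 at 151 bp and -0.93 at 101 bp in mettl3 morphants, and -1.04 at 151 bp and -0.66 at 101 bp in controls. The log2 ratio of IP over input was -0.86 ± 0.21 (SE, edgeR adjusted p = 0.0198) in mettl3 morphants and -0.82 ± 0.21 (SE, edgeR adjusted p = 0.0218) in controls.

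For stab1 the IPs of mettl3 morphants held 25.4 and 19.7 CPM, against 33.4 and 26.3 CPM in inputs, and the IPs of controls held 19.6 and 21.3 CPM, against 28.9 and 30.8 CPM in inputs. IPs lay below the inputs of their label in all 4 libraries, and in controls the log2 ratio was -0.56 at 151 bp and -0.53 at 101 bp. The log2 ratio was -0.40 ± 0.17 in mettl3 morphants (SE, edgeR adjusted p = 0.117), which missed the threshold, and -0.54 ± 0.17 in controls (SE, edgeR adjusted p = 0.0456). For stab2 the ratios of -0.42 ± 0.19 in mettl3 morphants and -0.46 ± 0.19 in controls (SE) also missed it, with edgeR adjusted p of 0.127 and 0.0938, although no IP overlapped an input of its label.

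In the other direction, plvapb was at 46.2 and 30.7 CPM in IPs of mettl3 morphants, against 34.3 and 27.0 CPM in inputs, and at 35.6 and 40.8 CPM in IPs of controls, against 23.9 and 30.3 CPM in inputs. IPs and inputs overlapped in mettl3 morphants and not in controls. Its log2 ratio was 0.33 ± 0.22 in mettl3 morphants and 0.50 ± 0.22 in controls (SE, edgeR adjusted p = 0.305 and 0.128). lyve1b, at few CPM in all trunk libraries, gave 0.24 ± 0.39 in mettl3 morphants and 0.46 ± 0.39 in controls (SE), neither past the threshold. The ratios of flt1, tek and she lay between -0.28 and -0.01 in both labels.

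**Figure D5:**
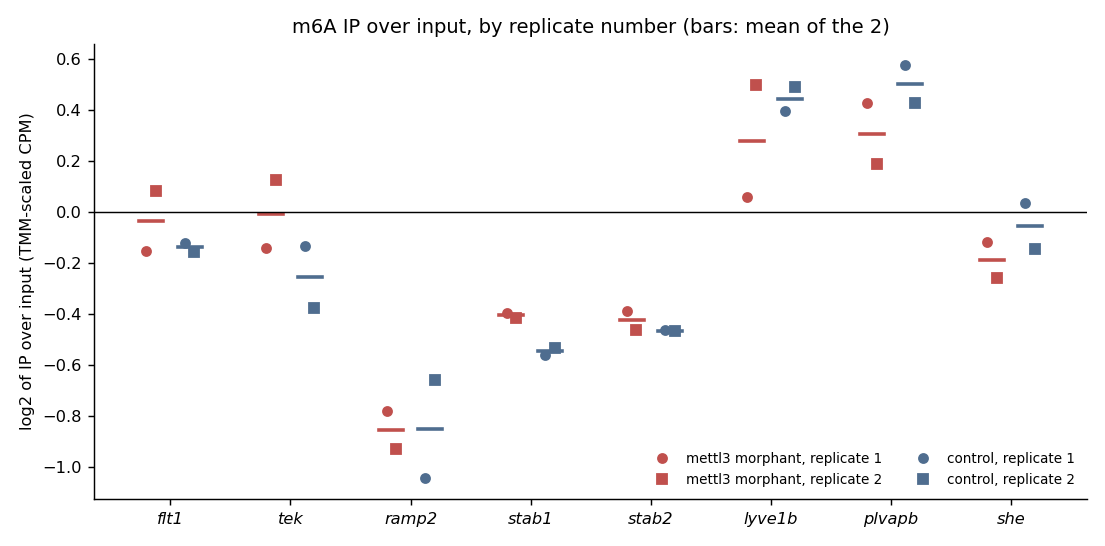
Log2 ratio of IP over input, in TMM-scaled CPM, for each gene by replicate number, in mettl3 morphants (red) and controls (blue). Short bars give the mean of 2 replicates; ramp2, stab1 and stab2 lie below 0 in all 4 pairs, and lyve1b and plvapb above 0 in all 4.

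The change of IP over input between mettl3 morphants and controls was not detectable for any of the 8. edgeR called 0 of 8 and 0% of 23163 genes. At an unadjusted p below 0.05 there were 84 genes, again a smaller share than the 0.05 expected if no gene differed. DESeq2 called 1 gene and 0 of the 8. The change ran from -0.21 ± 0.56 (SE) for lyve1b to 0.27 ± 0.43 (SE) for tek on the log2 scale, with an edgeR adjusted p of 0.99998 for each. Errors of this size leave room for changes as large as the IP ratios themselves. The calls within a label were also thin. Leaving out control input 1, control input 2 or control IP 1 left 0 of 8 called in controls, and leaving out control IP 2 left 1, ramp2. Leaving out mettl3 morphant input 2, IP 1 or IP 2 left 0 called in mettl3 morphants.

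Related genes gave calls in both directions. Of 14 core genes edgeR called 4 higher in IP in mettl3 morphants and 4 in controls, and none lower. Over all genes 13.1% and 13.7% were called higher and 13.2% and 14.6% lower. The median log2 ratios of the core genes were 0.41 and 0.48. VEGFC was higher in both labels, at 1.02 in mettl3 morphants and 1.20 in controls (edgeR adjusted p = 0.0133 and 0.00684). calcrla, the receptor that pairs with ramp2, was lower in both, at -0.64 in mettl3 morphants and -0.53 in controls (edgeR adjusted p = 0.0187 and 0.0358). TIE1, KDR and cdh5 were called in neither.

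RNA recovered with Flag-tagged Ythdf2 was set against the control inputs, which differ from it in RNA selection, in the injected mRNA and in depth, and these cannot be told apart. Read length differed in part, with 101 bp in both RIP libraries, against 151 bp in control input 1 and 101 bp in control input 2, and against control input 2 alone edgeR also called 0 of 8. edgeR called 0 of 8 genes, where 7.15% of 21005 genes were called higher and 6.56% lower, and DESeq2 also called 0 of 8. An unadjusted edgeR p below 0.05 was found for 7644 of the 21005 genes, and for 2 of the 8, flt1 and ramp2. The scaling decides the direction here. With TMM 1502 genes were called higher and 1378 lower, and with total gene counts 407 higher and 14315 lower. The median log2 ratio of all genes was -0.19 with TMM and -2.11 with total counts.

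With TMM, flt1 was at 6.17 and 5.32 CPM in RIP, against 3.38 and 3.27 CPM in control inputs, from 39 RIP counts in all. Both RIP libraries lay above both inputs, with a log2 ratio of 0.80 ± 0.33 (SE, edgeR adjusted p = 0.126) that total-count scaling turns to -1.13. ramp2 was at 3.08 and 3.19 CPM in RIP, against 6.38 and 7.39 CPM in control inputs, from 21 RIP counts. Both RIP libraries lay below both inputs, with a log2 ratio of -1.14 ± 0.38 (SE, edgeR adjusted p = 0.0775), which was -3.07 with total counts.

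she was at 12.1 and 4.96 CPM in RIP, against 17.5 and 17.5 CPM in control inputs, and plvapb at 18.5 and 15.6 CPM in RIP, against 11.9 and 15.1 CPM in control inputs. The RIP libraries of she lay below both inputs and those of plvapb above both, with log2 ratios of -1.01 ± 0.50 and 0.34 ± 0.41 (SE), of which total counts turn that of plvapb to -1.60. lyve1b had 3 counts in the RIP libraries together against 495 in control inputs, a scaled ratio of 0.222 with a counting interval of 0.0456 to 0.652. That interval leaves out scatter between libraries. With it, the log2 ratio of lyve1b was -2.12 ± 0.92 (SE, edgeR adjusted p = 0.140), which missed the threshold. tek, stab1 and stab2 overlapped between RIP and inputs, with log2 ratios from -0.23 to -0.04. Leaving out 1 library moved these log2 ratios across 0, between -0.51 and 0.45 for tek, -0.67 and 0.040 for stab1, and -0.67 and 0.29 for stab2.

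Among related genes, with TMM scaling, edgeR called 3 of 14 endothelial core genes and 2 of 6 Tie and angiopoietin genes higher in RIP. It also called 1 of 5 vascular endothelial growth factor genes and 1 of 8 venous and lymphatic genes higher. None of these lists had a gene called lower. Of 5 caveolae genes edgeR called 0 higher and 1 lower, CAV2 at -1.98 (edgeR adjusted p = 0.0438). Over all genes 7.15% were called higher and 6.56% lower, so 1 gene called in a short list is no result about the list. Among the higher ones were SOX7 at a log2 ratio of 2.59 (edgeR adjusted p = 0.028) and ephb4b at 2.65 (edgeR adjusted p = 0.0393). calcrla stood at -1.55, beside -1.14 for its partner ramp2, and neither was called.

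Over the 8 count groups, each gene's pattern was compared among 12486 genes by Pearson correlation of log2 CPM. The points share their normalization and 3 of the 8 are endothelial, and the 3 highest values lay between 0.994 and 0.999 for every gene. Closest to flt1 were mpped2a, LMO2 and BABAM1, and GPR182 and ST3GAL3 were among those closest to tek. For ramp2 they were map4k2, AQP1 and sh3gl3b. The stabilins had zgc:162239, CDT1 and FBXW4 (stab1) and il13ra2, dab2 and mpped2a (stab2). lyve1b had GNG2, FAM174B and si:dkey-202i12.5, plvapb had PLK2, TNFAIP8L1 and c2cd4a, and she had tmem88a, mark3a and etsrp.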

How the data were processed

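The 16 deposited tables hold raw read counts per gene, which the authors made from reads aligned with TopHat2 2.0.9 and counted with HTSeq (0.5.3p9 where a version is named), per the submitters' processing notes. Build, annotation release and strand setting were not given in the sources used here, so overlapping and antisense genes cannot be told apart. Rows that name no gene were left out, and reads outside genes among them ranged over 42.9% to 43.8% of RIP libraries, 9.07% to 13.5% of MeRIP libraries and 9.49% to 10.5% of endothelial ones. Symbols are those of the gene name table, and of 187 listed genes 111 matched.

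Trunk comparisons used edgeR 4.0.16 (R 4.3.3) quasi-likelihood tests with TMM scaling, filterByExpr and Benjamini-Hochberg adjustment over all genes tested, called at an adjusted p below 0.05. DESeq2 1.42.0 was an alternative. Inputs, MeRIP and RIP were fitted separately, each with its own TMM factors. The same control inputs therefore stand at about 0.5 of their other CPM in the RIP fit, where their factors are 1.78 and 2.12, and CPM are compared only within a fit. Endothelial columns were summed, genes with at least 20 counts in 1 group were kept, and called means past 2-fold. A summed count of 0 was set to 3 for the ratio. Intervals are exact binomial at 95% and cover counting error only. The scripts were tested on simulated data.

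The 8 genes and all lists were chosen with earlier results of these data known. All 8 are named, with at most 3 genes of each list by size of log2 ratio and the closest relatives or partners. Some further genes are named to complete a count. Scaling to core genes and the leaving out of control cells were added after seeing the data. In the labels' protocols replicate 1 of all MeRIP groups was read at 151 bp and replicate 2 at 101 bp, so the number marks a shared read length, and same-numbered libraries deviated together (correlations of 0.15 to 0.55). The number was fitted as a block as an alternative. One gene among those most like tek is not reported here.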

Additional observations from a re-analysis of the deposited data

Results flagged for a closer look

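The gene flt1 was flagged because, with TMM scaling, it stood above control in endothelial cells and just below it in trunk inputs. No difference by label was detectable for it in the trunk. In endothelial cells of mettl3 morphants its log2 ratio to control was 0.89, while both mettl3 morphant inputs (6.36 and 6.06 CPM) lay below both control inputs (6.57 and 6.37 CPM). The difference between the tissues was not tested, the input difference was -0.06 ± 0.15 (SE), and core scaling gives a log2 ratio of -0.29 in endothelial cells. The share of all genes whose inputs separate by label was not counted.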

How the results depend on the processing

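Endothelial groups are 1 sample each, and the RIP libraries hold 3 to 379 counts per gene, which limits what small differences can show. Of the counts of the 8 genes called, total-count scaling gave 0 for IP over input in mettl3 morphants and 0 in controls. In RIP it gave 8, all lower, where 14315 of 21005 genes were called lower and 407 higher. It gave 7 past 2-fold higher in mettl3 morphant endothelial cells, where it raises every log2 ratio by 0.27 (0.19 in ythdf2 morphants). The share of all genes past 2-fold in those cells was not counted under that scaling. No filter gave 2 in RIP. Core scaling gave 1 in mettl3 and 1 in ythdf2 morphant endothelial cells. Leaving out 1 library gave 0 to 1 for IP in mettl3 morphants, 0 to 2 in controls and 0 to 5 in RIP. The cause was not tested.

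Directions turned as follows, in log2. With total counts, IP over input was 0.042 for flt1 and 0.065 for tek in mettl3 morphants and 0.051 for she in controls, the change was -0.0039 for stab2, and RIP was -1.13 for flt1 and -1.60 for plvapb. With DESeq2, tek was 0.0042 for IP in mettl3 morphants and stab2 0.015 in RIP. With no filter, ramp2 was -0.0024 in inputs and tek 0.012 for IP in mettl3 morphants. Core scaling gave -0.29 for flt1, -0.16 for ramp2, -0.53 for stab1, -0.34 for stab2 and -0.26 for she in mettl3 morphant endothelial cells, and -0.51 for ramp2, -0.066 for stab2, -1.23 for lyve1b and -0.43 for plvapb in those of ythdf2 morphants.

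Leaving out 1 library moved the input difference between -0.49 and 0.33 for tek, -0.11 and 0.11 for ramp2, -0.18 and 0.15 for stab1, -0.12 and 0.21 for stab2, -0.21 and 0.70 for lyve1b, and -0.0090 and 0.35 for plvapb. IP over input in mettl3 morphants moved between -0.097 and 0.060 for flt1, -0.14 and 0.15 for tek, and -0.11 and 0.72 for lyve1b. In controls it moved between -0.64 and 0.23 for tek, -0.0016 and 0.92 for lyve1b, and -0.14 and 0.077 for she. Its change moved between -0.23 and 0.63 for tek, -0.30 and 0.26 for ramp2, -0.041 and 0.33 for stab1, -0.17 and 0.21 for stab2, -0.67 and 0.26 for lyve1b, and -0.48 and 0.10 for plvapb. For lyve1b in ythdf2 morphant endothelial cells, leaving out either column number gave -0.042 and 0.14. RIP moved between -0.51 and 0.45 for tek, -0.67 and 0.040 for stab1, and -0.67 and 0.29 for stab2.

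With a replicate block, which in MeRIP is also a block for read length, no call of the 8 genes changed. In IP these stood at edgeR adjusted p of 0.00592 for ramp2 in mettl3 morphants, and 0.00584 for ramp2 and 0.0267 for stab1 in controls. Over all genes, RIP calls ran from 237 higher and 50 lower without control input 2 to 4470 higher and 6796 lower without RIP 1, and were 2972 higher and 2298 lower with DESeq2 and 2249 higher and 3600 lower with no filter. IP calls in controls fell to 906 higher and 1395 lower without control input 1, and in mettl3 morphants to 1383 higher and 1570 lower without mettl3 morphant input 2. Inputs gave 19 higher and 7 lower with total counts, 2 higher and 3 lower with a replicate block, and 0 higher and 2 lower with no filter.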

Other observations

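Among lists outside the pathways of the 8 genes, arterial genes were past 2-fold higher in 2 of 8 in mettl3 morphant endothelial cells, near the 19.5% of all genes that were, and in 4 of 8 in those of ythdf2 morphants, beside 21.4% of all genes. 1 was lower in each, beside 31.2% and 32% of all genes. The lower one was UNC5B in mettl3 morphants, at a log2 ratio of -3.30, and cxcl12b in ythdf2 morphants, at -1.14. The median log2 ratios to control were 0.76 in mettl3 morphants and 1.09 in ythdf2 morphants under TMM scaling, both below 0 after the core scaling. HEY2, a transcription factor of arterial endothelium, was at 165 CPM in mettl3 morphants and 361 CPM in ythdf2 morphants, against 46.7 CPM in controls.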
